A study of Homo sapiens with 2 samples.

Results

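The 10 genes FTH1, FTL, TFRC, TFR2, HAMP, SLC40A1, HFE, IREB2, ACO1 and SLC11A2 cover the storage, uptake, export and hormonal control of iron, and were taken as a list of names from the 26228 gene names present in both libraries. RNA was sequenced from PLC cells, a human liver cancer line, that stably carried the empty vector (EV, genotype labelled WT) or stably overexpressed human PRSS35, a secreted protease. Both lines were made with the pCDH lentiviral vector and puromycin selection, were grown in DMEM and had no treatment label. Whether a line was a pool or a clone, and whether the sequenced cells were starved of serum, which brings transferrin-bound iron, is not given in the sources used here. As each condition has 1 library, an effect of PRSS35 and a chance difference of the dishes cannot be told apart, and no p-value is given.

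A cell takes up iron as iron-loaded transferrin through its receptor, stores the surplus inside ferritin, a shell of heavy (H) and light (L) chains, and releases iron through ferroportin. Iron regulatory proteins tie these steps together: in iron-poor cells they bind a hairpin, the iron-responsive element, which blocks translation when it lies in the 5′ UTR of ferritin or ferroportin mRNA and protects the transferrin receptor mRNA from decay when it lies in the 3′ UTR. Hepatocytes also make hepcidin, the hormone that removes ferroportin from cell surfaces. Part of this control acts on translation or on protein, which mRNA values do not show.

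The hairpins are shown because they show which of the 10 mRNAs hold the letters of this element, and in which UTR. In the GENCODE v44lift37 transcripts (GRCh37), the letters CNNNNNCAGTGN were searched on the sense strand of the mRNA, with all 5 bases on either side of the CAGTGN loop able to pair and at least 3 of the 5 bases below the unpaired C able to pair. A match was present in the 5′ UTR of 0.0409% and in the 3′ UTR of 0.159% of 19553 protein-coding genes. Among the 10 genes, FTH1, FTL and SLC40A1 each held 1 match in exon 1, in the 5′ UTR, and TFRC held 4 in exon 19, in the 3′ UTR. The loop is in capitals, each sequence is read 5′ to 3′ along the mRNA, and all 7 were found again in the genome sequence at the given place.
FTH1 5′ UTR, chr11:61735047-61735073, minus strand: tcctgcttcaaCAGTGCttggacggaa
FTL 5′ UTR, chr19:49468593-49468619, plus strand: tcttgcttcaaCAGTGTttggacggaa
SLC40A1 5′ UTR, chr2:190445388-190445414, minus strand: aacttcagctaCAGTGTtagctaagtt
TFRC 3′ UTR, chr3:195777851-195777877, minus strand: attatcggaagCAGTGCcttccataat
TFRC 3′ UTR, chr3:195777447-195777473, minus strand: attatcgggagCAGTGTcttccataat
TFRC 3′ UTR, chr3:195777382-195777408, minus strand: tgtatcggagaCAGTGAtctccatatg
TFRC 3′ UTR, chr3:195777335-195777361, minus strand: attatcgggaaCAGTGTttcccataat
No match was found in the annotated UTRs of the other 6 genes. The search allowed only this loop and all 5 pairs beside it, so elements with a bulge or a mismatch there are missed. A gene without a match may thus still hold an element, and TFRC may hold more than 4.

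The values are FPKM, a fragment number corrected for transcript length and sequencing depth, and Cufflinks put a lower and an upper bound around each. The bounds cover error within a library only. PRSS35 itself had an FPKM of 0.643 (bounds 0.445 to 0.841) in EV and 1836 (1759 to 1912) in PRSS35 cells, as the labels say. Of 10 hepatocyte markers 9 reached 1 FPKM in both libraries, among them ALB, TTR and HNF4A, and their sum was 3429 FPKM in EV and 5200 in PRSS35. Markers of macrophages, endothelial cells, fibroblasts and erythroid cells were at or near 0 except CD68, PDGFRB and HBA1. By 1 measure the libraries were about equally deep: the FPKM that 1 fragment adds was 0.999 times as large in PRSS35 as in EV (median of 210 loci). This measure includes any rescaling of the libraries by the software. The FPKM summed over all loci did differ, at 2469030 in EV and 1508529 in PRSS35.

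The 10 genes spanned a wide range of levels. In order of mean FPKM, they ran FTL, FTH1, TFRC, ACO1, SLC11A2, HFE, IREB2, SLC40A1, HAMP and TFR2. From FTL to SLC11A2 the intervals of neighbours in this order were apart in both libraries. Further down, SLC11A2 and HFE overlapped in PRSS35, HFE and IREB2 in EV, and IREB2 and SLC40A1 in both libraries. HAMP and TFR2 were not apart in either library. Changes are log2((FPKM in PRSS35 + 1) / (FPKM in EV + 1)), which understates the change of low genes, and a gene was called at 2-fold, a log2 change of 1, when its mean FPKM was at least 1. This minimum was met by 8 of the 10 genes, and HAMP and TFR2 did not meet it. Of these 8, 1 gene, FTH1, was called higher in PRSS35 cells, when 2.73% of 11118 expressed gene names were called higher, and 0 were called lower, against 2.48%. The call of FTH1 rests on a locus that holds another gene as well, as described with the ferritins.

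For 5 of the 8 expressed genes (FTH1, TFRC, HFE, ACO1 and SLC11A2) the intervals of EV and PRSS35 did not overlap, all with the higher value in PRSS35. This was also so for 25.1% of expressed names, while in a further 15.5% the intervals were apart with the lower value in PRSS35. In all, 6 of the 8 genes had a higher value in PRSS35, as did 60.2% of expressed names. Both counts include FTH1, whose PRSS35 value is that of the locus shared with another gene. Of the 7 other genes, 4 had intervals apart with the higher value in PRSS35. Over the 8 genes the log2 change had a median of 0.25, beside 0.06 over all expressed names, and of 0.24 over the 7 genes other than FTH1.

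Ferritin light chain (FTL) was the most abundant of the 10 transcripts. FTL had an FPKM of 5278 (bounds 5057 to 5498) in EV and 5242 (5023 to 5460) in PRSS35, rank 26 and rank 22 among expressed names. The intervals overlapped almost fully, and the log2 change was -0.01. FTL lies on chromosome 19 of hg19, from 49468566 to 49470136, and its locus had the same ends in both libraries.

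Ferritin heavy chain (FTH1) carries the ferroxidase activity that oxidizes iron on its way into the shell. In EV it had a locus of its own on chromosome 11, from 61731757 to 61735132, with an FPKM of 946 (bounds 905 to 987). FTL was thus 5.58 times as abundant per length as FTH1 in EV. In PRSS35 the name FTH1 stood on a locus of 178531 bases, from 61556602 to 61735132, that Cufflinks had assembled together with TMEM258, a small membrane protein gene, and MIR611. This joined locus had an FPKM of 2911 (2813 to 3008), a log2 change of 1.62 from the EV value of FTH1. In EV, TMEM258 with MIR611 was a separate locus at 1277 FPKM (1214 to 1340).

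The EV loci of FTH1 and TMEM258 summed to 2223 FPKM (2119 to 2327), which sets the same gene names against each other. The joined locus was 1.31 times as high as this sum, a log2 change of 0.39. None of the 10 genes was then called at 2-fold, when merging all joined neighbours in this way left 1.9% of names called higher. The intervals of this sum and of the joined locus were apart. The deposited values do not say how the joined 2911 FPKM divide between FTH1 and TMEM258, so no FTH1 level can be given for PRSS35 cells. Among the 166 expressed names that were joined with a neighbour in PRSS35 but not in EV, 50.6% were called higher. FEN1, a nuclease gene inside the joined span, had 49.5 FPKM in EV and is listed at 0 for PRSS35. It is not part of the EV sum, and whether its fragments were counted in the joined locus was not tested.

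**Figure D1:**
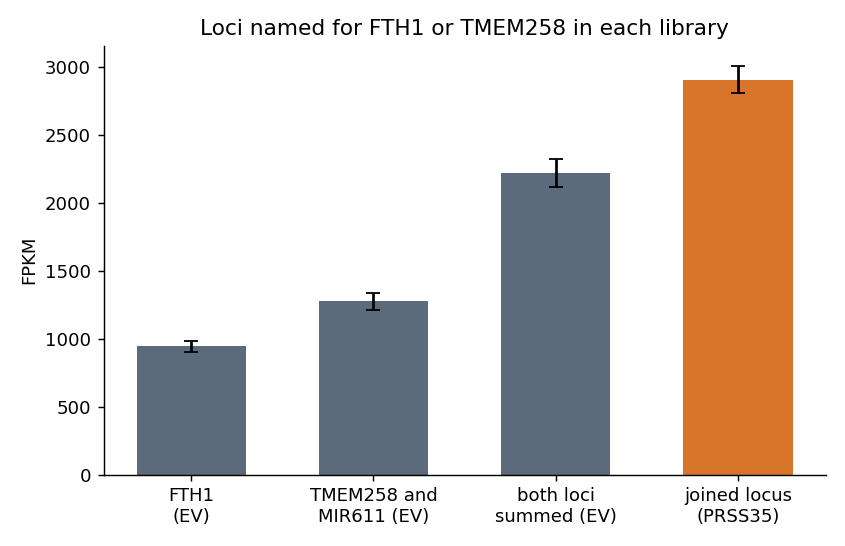
Bars are FPKM with the deposited lower and upper bounds (summed for the summed bar), EV in grey and PRSS35 in orange. The joined PRSS35 locus (2911 FPKM) is 3.08 times the EV value of FTH1 but 1.31 times the EV sum of FTH1 and TMEM258 (2223 FPKM).

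Ferritin genes also have many processed copies. GENCODE lists 25 FTH1 and 16 FTL pseudogenes by these names, and 41.3% of the 50-base stretches of the FTH1 mRNA and 18.5% of those of the FTL mRNA recur in them. The deposited tables name 3 ferritin pseudogenes, FTH1P3, FTH1P18 and FTLP10, of which FTH1P3 had 0.0470 FPKM in PRSS35 and all other values were 0. How reads that fit several copies were assigned is not given in the sources used here, so part of the ferritin values is uncertain for this reason.

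The iron regulatory proteins are encoded by ACO1 (IRP1), which is a cytosolic aconitase when it holds an iron-sulfur cluster, and IREB2 (IRP2), which is degraded in iron-rich cells. ACO1 had an FPKM of 15.0 (bounds 14.0 to 16.0) in EV and 21.8 (20.7 to 23.0) in PRSS35. Its intervals were apart, with a log2 change of 0.51, and 93.4% of expressed names had a lower change. The ACO1 locus kept its annotated structure in EV and was assembled from reads in PRSS35, with the same ends. IREB2 had an FPKM of 3.39 (3.12 to 3.66) in EV and 2.90 (2.65 to 3.15) in PRSS35. These intervals overlapped narrowly, and its log2 change was -0.17. Per length, ACO1 was 4.42 times as abundant as IREB2 in EV and 7.52 times in PRSS35.

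TFRC encodes the transferrin receptor that most cells use, and TFR2 a second receptor of hepatocytes that takes part in iron sensing. TFRC had an FPKM of 35.3 (bounds 33.6 to 37.1) in EV and 42.7 (40.7 to 44.8) in PRSS35. The intervals were apart, with a log2 change of 0.27, and the locus had the same ends in both libraries. TFR2 was near the limit of detection, at 0.134 FPKM (0.0440 to 0.224) in EV and 0.146 (0 to 0.395) in PRSS35. The widths of these intervals correspond to about 8.88 and 1.37 fragments, and no difference was detectable at this depth. In EV, TFRC was 264 times as abundant per length as TFR2.

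SLC11A2 encodes DMT1, which moves ferrous iron out of endosomes after transferrin uptake. It had an FPKM of 6.95 (bounds 6.29 to 7.61) in EV and 8.40 (7.65 to 9.15) in PRSS35. The intervals were barely apart, with a log2 change of 0.24, and with upper quartile scaling they overlapped.

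SLC40A1 encodes ferroportin, the iron exporter on which hepcidin acts. It had an FPKM of 2.71 (2.29 to 3.12) in EV and 3.18 (2.81 to 3.54) in PRSS35. The intervals overlapped, with a log2 change of 0.17, so that no difference was resolved between the libraries.

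HFE, an MHC class I-like protein that binds TFRC and promotes hepcidin expression, had the largest change of the genes on a locus of their own in both libraries and above the minimum of 1 FPKM. It had an FPKM of 3.47 (bounds 2.99 to 3.95) in EV and 7.06 (6.40 to 7.72) in PRSS35. The intervals were well apart and their widths correspond to about 210 and 459 fragments. The ratio of FPKM was 2.04, but the log2 change with the pseudocount was 0.85, which is under 2-fold, and 96.8% of expressed names had a lower change. Cufflinks assembled the locus in both libraries with different ends: it ran from 26087509 on chromosome 6 to 26097354 in EV and to 26096999 in PRSS35. The part of this difference in the FPKM was not tested.

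HAMP, which encodes hepcidin, was at the floor of both libraries. It had an FPKM of 0.629 (bounds 0 to 1.36) in EV, a width that corresponds to 3 fragments, and was listed at 0 in PRSS35. A listed 0 allows up to 3 fragments, so the libraries cannot be told apart for HAMP and no fold is given. In both libraries its value was below those of the 9 hepatocyte markers that reached 1 FPKM.

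**Figure D2:**
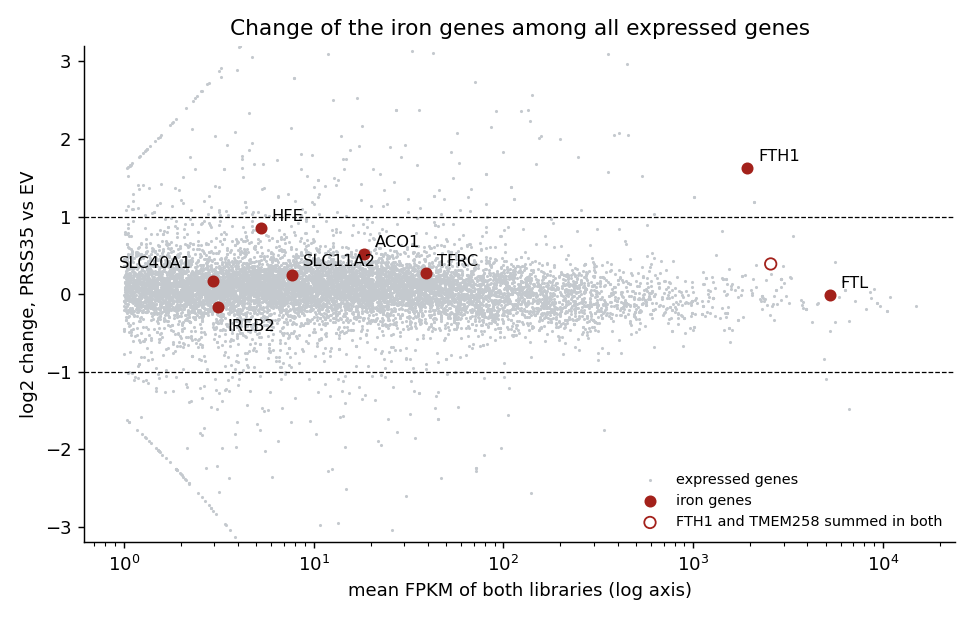
The horizontal axis is the mean FPKM of both libraries (log axis) and the vertical axis the log2 change, with all 11118 expressed names in grey, the 8 expressed iron genes in red and dashed lines at 2-fold; 190 names lie outside the plotted range. HFE (0.85) and ACO1 (0.51) lie above the bulk of the grey points, and FTL is at -0.01. The FTH1 point (1.62) sets the joined PRSS35 locus against FTH1 alone in EV. The open circle (0.39) is the sum of FTH1 and TMEM258 in both libraries, not FTH1 itself.

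Beyond these 10, 96 names of iron, haem and iron-sulfur genes were listed in 6 groups, and 92 were found, 74 of them expressed. Of the 74, 2 were called higher at 2-fold and 0 lower, when 5.21% of all expressed names were called in either direction. The intervals were apart for 25 genes with the higher value in PRSS35 and for 9 with the lower value, together 45.9% of the 74, beside 40.6% of all expressed names. Their median log2 change was 0.08. With joined neighbours merged in both libraries, 1 of the 74 was called higher, and the intervals were apart for 24 with the higher and 10 with the lower value.

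The called genes were SKP1 and MCOLN1. SKP1 is a subunit of the ubiquitin ligase that, with FBXL5, degrades IREB2. It had 28.0 FPKM (bounds 26.1 to 29.8) in EV and 80.6 (74.8 to 86.4) in PRSS35, with a locus annotated in EV and assembled in PRSS35. FBXL5, the iron sensor of that ligase, had 1.71 FPKM in EV and 2.17 in PRSS35, with overlapping intervals. MCOLN1, a lysosomal channel that passes iron, had 42.8 FPKM in EV and 90.8 in PRSS35, where its locus was joined with PNPLA6. With MCOLN1 and PNPLA6 summed in EV, the value there was 103.7 FPKM and the log2 change became -0.19, with intervals apart and the lower value in PRSS35.

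In the uptake group, transferrin (TF), the plasma iron carrier made by hepatocytes, had 224 FPKM (214 to 234) in EV and 348 (334 to 363) in PRSS35, a log2 change of 0.63. TF is also a hepatocyte marker, and the summed markers were higher in PRSS35 as well; their part in this value was not tested. Of the 11 expressed genes of the group, intervals were apart with the higher value in PRSS35 for 5 and with the lower value for 1, against 25.1% and 15.5% of all expressed names. With MCOLN1 and PNPLA6 merged the counts were 4 and 2. The gene that was lower in either count was CYBRD1, a ferric reductase, at 1.90 FPKM (1.11 to 2.70) and 0.661 (0.511 to 0.810), assembled in EV only. CYBRD1, like FBXL5, IL6R, SMAD6, SMAD7, BLVRA, IBA57, NCOA4, FTMT, BMP6, ALAS1, ALAS2, CDC14A and FDX1L, was chosen after its value was seen.

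In the storage group, PCBP1 and PCBP2, the chaperones that hand iron to ferritin, had log2 changes of 0.24 each, with intervals apart. The PCBP2 locus was joined with PCBP2-OT1 in both libraries, so its value is shared. NCOA4, which carries ferritin to the lysosome, had 6.19 FPKM in EV and 7.06 in PRSS35, with overlapping intervals, and mitochondrial ferritin (FTMT) was listed at 0 in both.

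In the hepcidin control group, 15 of 21 genes were expressed, with a median log2 change of 0.03. ID1, a BMP target, had 1156 FPKM (1106 to 1206) in EV and 1348 (1300 to 1397) in PRSS35, and ID3 had 1435 and 1481 with overlapping intervals. The hepcidin-inducing ligand BMP6 was listed at 0 in both libraries. IL6R, a subunit of the receptor for interleukin 6, which induces hepcidin, had a log2 change of 0.66 and SMAD6, an inhibitor of BMP signaling, one of -0.53, both with intervals apart. SMAD7, the other inhibitory SMAD, had 4.89 FPKM in EV and 6.65 in PRSS35, a log2 change of 0.38 with intervals apart. SMAD1, at 1.04 and 2.03 FPKM (log2 change 0.57), and STAT3 (0.26) also had intervals apart with the higher value in PRSS35. IL6ST (-0.02) had overlapping intervals. SMAD1, STAT3 and IL6ST, too, were chosen after their values were seen. Of the 15 genes, intervals were apart with the higher value in PRSS35 for 5 and with the lower value for 1, in all 40%, beside 40.6% of all expressed names.

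In the haem group, 6 of 16 expressed genes had intervals apart with the higher value in PRSS35 and 1 with the lower value, in all 43.8%, near the 40.6% of all expressed names. BLVRA, a biliverdin reductase, had 50.6 FPKM in EV and 78.1 in PRSS35, a log2 change of 0.62, with a locus annotated in EV and assembled in PRSS35. BLVRB, the other biliverdin reductase, had a log2 change of 0.12 with overlapping intervals. In the iron-sulfur group, 5 of 22 genes had intervals apart with the higher value in PRSS35 and 6 with the lower value, in all 50%, against 40.6% of all expressed names. FDX1L, among the 6, had 206 FPKM in EV, where its locus was joined with ZGLP1, and 175 in PRSS35, and it stayed lower with ZGLP1 added there. Among the genes with the lower value were also the abundant cytosolic assembly genes NUBP2, at 535 and 404 FPKM, and FAM96B, at 533 and 466, and the mitochondrial factor IBA57, at 3.63 and 2.38. Chosen after their values were seen, the others with the lower value were ISCA2 (log2 change -0.56) and NARFL (-0.21). The 5 with the higher value, chosen likewise, were NUBP1 (0.38), HSCB (0.37), GLRX5 (0.25), NFS1 (0.23) and HSPA9 (0.08).

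**Figure D3:**
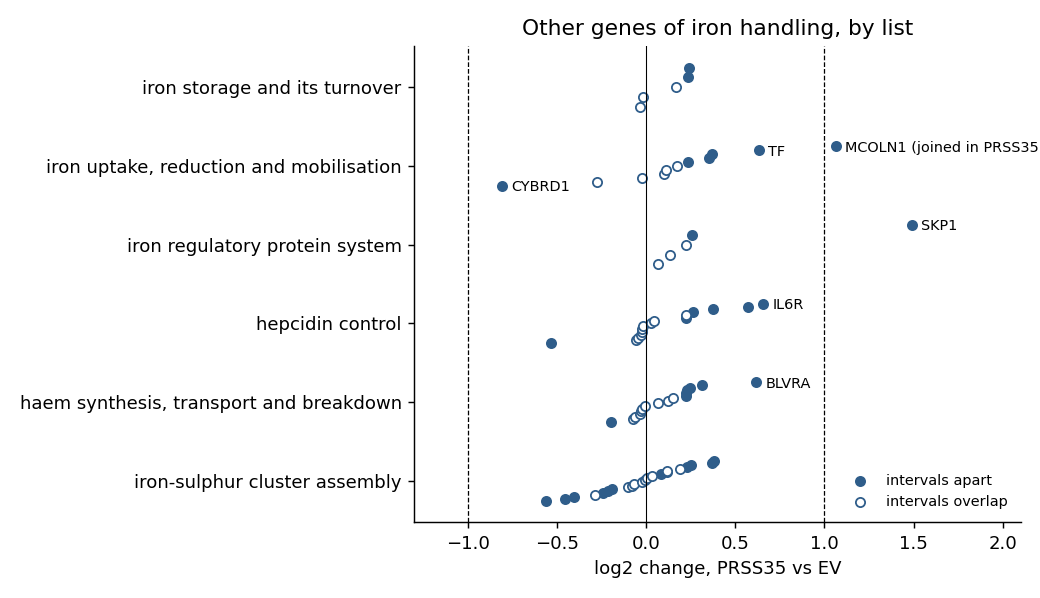
Each point is an expressed gene of 1 of the 6 lists, placed by its log2 change; filled points have intervals that do not overlap between EV and PRSS35, and dashed lines mark 2-fold. SKP1 (1.49) and MCOLN1 (1.07, a joined locus) lie beyond the line, and the iron-sulfur genes spread to either side of 0.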

How the data were processed

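The authors sequenced 1 library per condition on a HiSeq2500 from a kit that does not mark strand, aligned the reads to hg19 with TopHat2 (2.1.0) and assembled transcripts in each library with Cufflinks; the submitters' notes name Cuffdiff 2.2.1. The annotation release is not given in the sources used here. The deposited FPKM and its lower and upper bounds were used as they stand; they hold no counts, and no count model was fitted. Each gene took the sum over loci carrying its name, alone or in a joined name, so a joined locus counts under each of its names. Alternate haplotypes and unplaced contigs (1261 loci per library) were not used. Expressed names have a mean FPKM of at least 1. Fragments implied by an interval are the square of 2 times FPKM over its upper half-width; depth used annotated loci under 200 fragments within 0.01 of a whole number. Genes named were the 10, PRSS35, joined neighbours and, per list, called genes, the 2 most abundant and genes at 0 in 1 library only, with others marked as chosen after their values were seen. The members and lists were chosen with earlier results of these data known. Alternatives were other pseudocounts, scalings, filters, locus rules and a 1.5-fold threshold. The code for the calls was tested on simulated data, which says nothing of the spread between cultures. Some genes that this rule names are not reported here. Python 3.11.15, numpy 2.4.6, pandas 2.3.3 and matplotlib 3.10.9 were used.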

Additional observations from a re-analysis of the deposited data

How the results depend on the processing

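The number of the 10 iron genes called at 2-fold was 1 (FTH1) with a pseudocount of 5 FPKM, scaling by named loci or by the upper quartile, centring, the highest locus per name and both other filters. It was 0 without joined loci and 0 with joined neighbours merged in both libraries (chosen after seeing the data), and 2 (FTH1 and HFE) with a pseudocount of 0.1 FPKM and 2 at a 1.5-fold threshold. Scaling by the FPKM sum of all loci moved the median log2 change of expressed names from 0.06 to 0.68. It gave 3 called genes (FTH1, HFE and ACO1), 8 genes with intervals apart in place of 5 and a median of the iron genes of 0.92, and over all names 1273 higher and 180 lower in place of 303 and 276. With this scaling IREB2 went from -0.17 to 0.37, below the median name in either case, and FTL from -0.01 to 0.70. Merging joined neighbours left 195 names higher and 189 lower. The median of the iron genes was 0.39 with a minimum mean of 5 FPKM, where 6 genes remained. With upper quartile scaling 5 genes had intervals apart, with IREB2 in place of SLC11A2. Apart from the sums over all loci, the sign of TFR2 turned with centring to -0.05 and that of FTL with scaling by named loci to 0.03. No paired analysis was possible because neither EV nor PRSS35 has more than 1 library. Depth limits HAMP and TFR2, whose intervals correspond to at most 8.88 fragments.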

Other observations

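Outside the 10 genes, the iron-responsive element search also found matches in annotated UTRs of the listed genes ALAS2, CDC14A and TF. This list is not complete. Matches on 1 chromosome, which holds none of the 10 genes, were left out, so listed genes there are not covered. ALAS2, the erythroid enzyme that starts haem synthesis, was listed at 0 in both libraries, whereas ALAS1, the form used in liver, had 41.4 FPKM (39.3 to 43.4) in EV and 49.3 (47.0 to 51.6) in PRSS35. CDC14A, a phosphatase, had 0.486 FPKM in EV and 0.631 in PRSS35, and thus lay under 1 FPKM in both. The match in the 3′ UTR of TF has 3 of 5 pairs below the unpaired C, the minimum asked for, and is a description of letters only.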
